A study of Homo sapiens with 3 samples.

Results

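The genes described here are interferon-stimulated genes and the sensors, ligands and transcription factors that act with them in antiviral defence. They were taken as a named list of 41 genes, each represented by all array probes whose RefSeq transcript belongs to it. Of these, 40 had at least 1 probe, out of 19699 genes that could be named on the arrays, and IFI27 had no matched probe. Double-stranded or unusual RNA in the cytoplasm is detected by RIG-I-like receptors, which switch on the genes of type I and type III interferons. The secreted interferons bind their receptors, the kinases JAK1 and TYK2 are activated, and a complex that contains STAT2 and IRF9 binds the interferon-stimulated response element (ISRE) in the promoters of target genes. The products of those genes degrade viral RNA, block its translation, trap virus particles or carry ISG15, a ubiquitin-like protein that is attached to other proteins.

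RNA came from PANC-1, an established human ductal pancreatic carcinoma line. There was 1 array of control cells, 1 of cells given cantharidin and 1 of cells given okadaic acid, with an exposure of 24 h. Both agents block PP2A, a phosphatase that acts on many signalling proteins. The label of each treated sample gives a dose of 20 µM, although the wording of the shared treatment note leaves unclear whether that dose applied to okadaic acid, and no vehicle is named for the control. All 3 arrays lay on 1 slide and were scanned together, so each group had its own place on the slide. With 1 array per group no difference has a replicate check, and no test or p-value is given. Both agents are set against the same control array, so the values of the control comparisons are not independent of each other, whereas the direct comparison of okadaic acid with cantharidin does not use that array.

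Signals are processed intensities in scanner units, as deposited. Differences and folds were taken after each array was divided by its 75th percentile, which was 784 in control, 713 with cantharidin and 936 with okadaic acid. A fold is therefore not the plain ratio of the intensities. The gap is largest between the agents, whose percentiles lie furthest apart, and there it can decide a call near the threshold. A gene was read from its brightest probe and called higher or lower at 1.5-fold. The dimmest signal that counted as well above background was 35.0 in control, 21.9 with cantharidin and 58.0 with okadaic acid. Where 1 of the arrays compared was below background the fold is a bound and is written "at least", with the dim signal, or the dimmest accepted signal of its array if that was higher, as the lower value. Such a bound holds for this processing only, and some alternatives gave smaller folds, as the last section shows. Replicate spots of other probes on the same array were at least 1.5-fold apart in 8.36% to 13.7% of spot pairs for intensities under 100, in 0.964% to 1.65% for spots up to 10 times brighter and in 0.178% to 0.233% for those brighter still. For the members measured on both arrays, the scanner's own error of a log2 difference was 0.20 to 0.43. These figures cover spot error only and leave out variation between cultures.

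Signals well above background were found on all 3 arrays for 29 of the 40 genes, on 1 or 2 arrays for 7, and on none for 4 (RSAD2, HERC6, SAMD9L and PARP9). The epithelial markers KRT7, KRT8, KRT18, KRT19 and EPCAM, with VIM, were well above background on every array, whereas CDH1 passed on the control array only. Of 7 leukocyte markers with a probe, 6 were well above background on each array and CLEC4C on none. Their summed intensity was 4811, 3497 and 13367 for control, cantharidin and okadaic acid, and most of the last value came from CD14, with 11044. Those of the fibroblast list summed to 663, 453 and 180 in the same order, with COL1A2 and LUM below background throughout. COL1A1 carried the first sum, with 528, and PDGFRB the second, with 375 (at least 11.8-fold above control), while COL1A1 was below background on both treated arrays. The endothelial list summed to 2269, 1321 and 1602, with PECAM1 and CLDN5 below background throughout. The part of these markers in the results was not tested. In such bulk RNA, fewer cells that express a gene and less RNA per cell cannot be told apart.

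**Figure D1:**
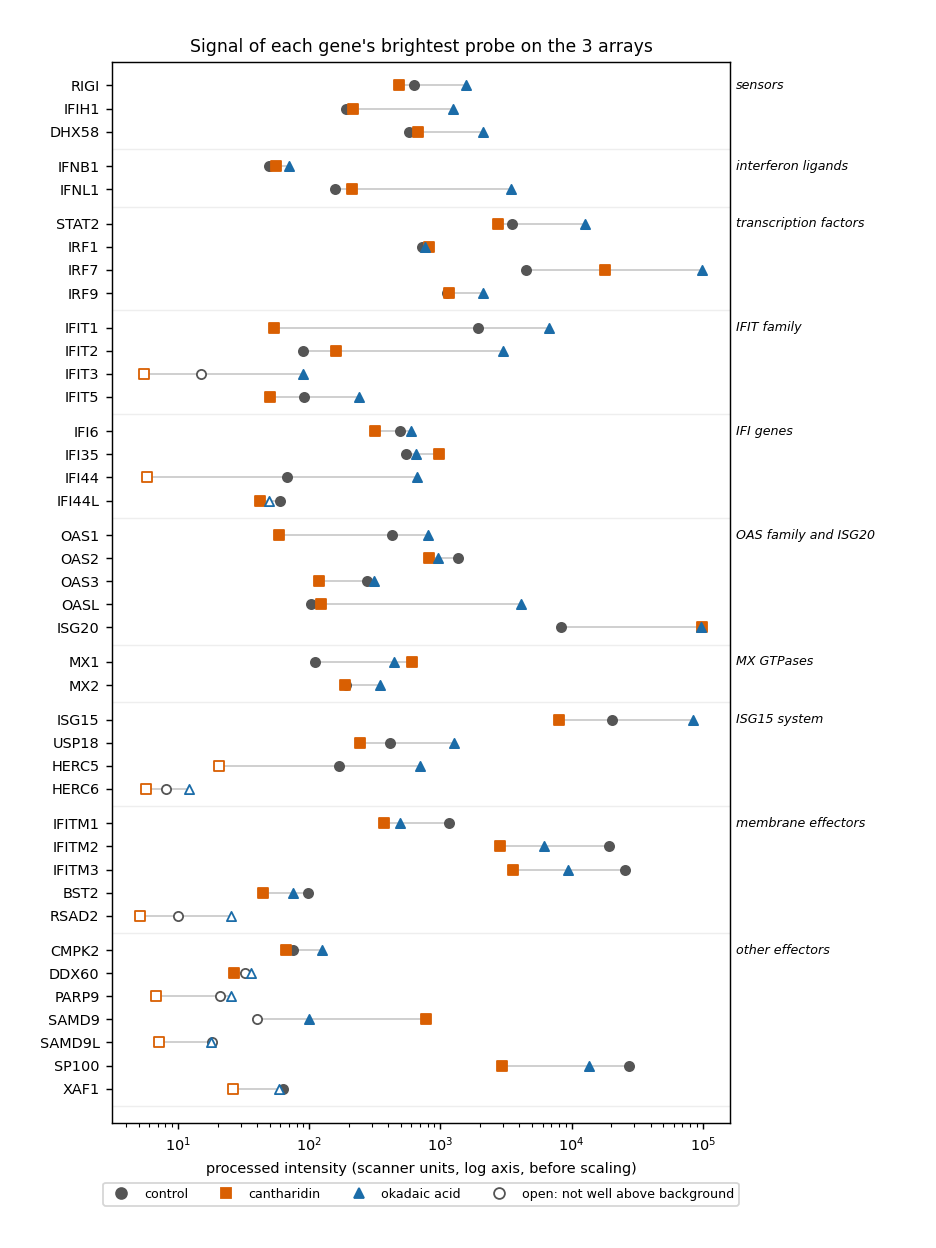
Processed intensity (log axis, before scaling) of the brightest probe of the 40 genes on the control (circles), cantharidin (squares) and okadaic acid (triangles) arrays, in groups by role. Open symbols mark signals not well above background, and the grey line joins the lowest and highest value of a gene. IFIT1 ran from 53.9 under cantharidin to 6666 under okadaic acid, while the 3 IFITM genes were brightest on the control array.

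The 2 agents gave unlike values across the list. Under cantharidin, 35 genes could be compared with control, of which 6 were higher (17.1%) and 15 lower (42.9%), against 26.3% higher and 34.0% lower among all 16644 genes compared. Their median log2 difference was -0.25, against -0.16 for all genes. Under okadaic acid, 21 of 35 were higher (60.0%) and 6 lower (17.1%), against 28.0% higher and 27.0% lower among all 16166 genes compared, and the median was 1.04 against 0.00. When okadaic acid was set directly against cantharidin, 20 of 35 were higher with okadaic acid (57.1%) and 3 lower (8.57%), against 29.4% and 20.5% of 16200 genes. The list's median was then 0.99 and that of all genes 0.10. Without scaling between the arrays, all genes split into 36.5% higher and 20.8% lower for okadaic acid against control, and 46.1% higher and 12.3% lower for okadaic acid against cantharidin. The members then gave 22 higher and 4 lower in the first case, and 25 higher and 1 lower in the second.

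**Figure D2:**
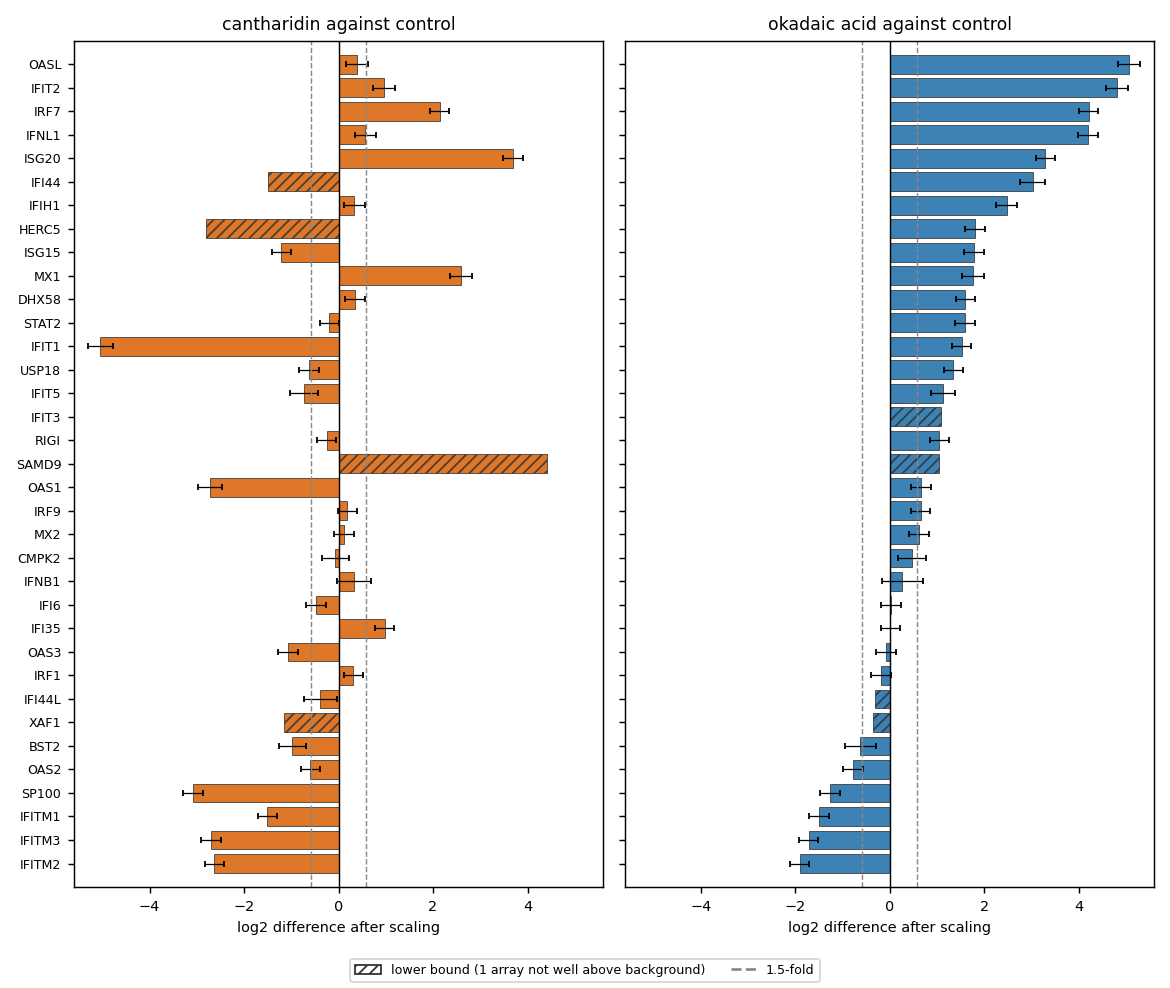
Log2 difference from control after scaling for cantharidin (left) and okadaic acid (right), for the genes with a difference in either comparison, in the order of the okadaic acid values. Error bars are the scanner's error of each difference, hatched bars are lower bounds, and dashed lines mark 1.5-fold. The bars at the top for okadaic acid belong to OASL, IFIT2, IRF7 and IFNL1, and at the bottom both agents show lower IFITM1, IFITM2 and IFITM3.

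The ISRE was searched in the promoters of the list, since it is the element that the complex with STAT2 and IRF9 binds. The RefSeq promoter table (GRCh38.p14) covers 250 bases before to 50 after each transcript start and holds 33 of the 41 genes. The letters GAAANNGAAA, where N is any base, occurred on either strand in 21 of these 33 genes (63.6%) and in 1195 of all 27305 genes in the table (4.38%). TTCNNNGAA, the core of the gamma-activated site bound by STAT dimers, occurred in 10 of 33 (30.3%) against 9.38% of all genes. The NF-κB consensus, searched on both strands, occurred in 9 of 33 (27.3%) against 13.3%. Searches were independent, so matches of different motifs could overlap. A gene with several windows counted if any of them matched. The genes were listed as interferon-stimulated, so these shares describe the list and not a response on the arrays. A match describes letters only, and no binding was measured.

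The ISRE stretches of 8 genes are printed below because these genes span the range of responses described in the next paragraphs, and they were chosen after the values were seen. Each is read 5′ to 3′ along the gene's own strand, with every base of an ISRE match in capitals. A match on the opposite strand appears as its reverse complement, and matches can overlap. The stretch of IFNL1 lies at chr19:39296178-39296223 (plus strand), that of IFIT1 at chr10:89392492-89392544 (plus strand) and that of ISG15 at chr1:1013369-1013414 (plus strand). Those of HERC5 and IFI44 lie at chr4:88456979-88457069 and chr1:78649756-78649795, both on the plus strand. ISG20 is at chr15:88638932-88638971 on the plus strand. SAMD9 and IFITM3 are on the minus strand, at chr7:93118091-93118130 and chr11:320871-320927.
IFNL1: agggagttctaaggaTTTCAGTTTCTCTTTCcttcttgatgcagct
IFIT1: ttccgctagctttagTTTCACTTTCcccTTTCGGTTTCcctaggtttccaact
ISG15: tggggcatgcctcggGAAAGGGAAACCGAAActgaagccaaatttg
HERC5: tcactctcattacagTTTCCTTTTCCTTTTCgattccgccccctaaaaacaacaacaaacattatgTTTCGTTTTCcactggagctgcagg
IFI44: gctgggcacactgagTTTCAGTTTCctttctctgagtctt
ISG20: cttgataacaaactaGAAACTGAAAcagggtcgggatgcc
SAMD9: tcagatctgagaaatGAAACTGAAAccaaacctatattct
IFITM3: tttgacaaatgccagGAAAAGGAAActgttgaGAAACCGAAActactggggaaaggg

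Genes with these letters did not share a single response. IFNL1, IFIT1, ISG15, HERC5 and IFI44 were higher under okadaic acid and, apart from IFNL1, lower under cantharidin, whereas ISG20 and SAMD9 were higher under both agents and IFITM3 lower under both. Among the 20 genes with both a probe and a match, 17 could be compared for okadaic acid against control, with 11 higher and 3 lower, and for cantharidin 3 of 17 were higher and 9 lower. Of 12 genes whose window lacked the letters, 10 could be compared in each case, with 4 higher and 1 lower under okadaic acid and 1 higher and 3 lower under cantharidin. The other 8 genes had no window in the table, and of these 6 were higher and 2 lower under okadaic acid, with 2 higher and 3 lower under cantharidin. Beside these counts, all genes compared gave 28.0% higher and 27.0% lower with okadaic acid and 26.3% higher and 34.0% lower with cantharidin, and the sets are small.

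The 3 RIG-I-like receptors were brightest under okadaic acid and stayed within 1.5-fold of control under cantharidin. IFIH1 encodes MDA5, a sensor of long double-stranded RNA. It gave 189 in control, 216 with cantharidin and 1250 with okadaic acid, which is 5.55-fold higher with okadaic acid than in control and 4.40-fold higher than with cantharidin. DHX58 encodes LGP2, a regulator of the other receptors, and gave 579, 672 and 2097 in the same order, 3.03-fold higher with okadaic acid. RIGI, the sensor of RNA with a 5′ triphosphate, gave 633, 483 and 1562, 2.07-fold higher with okadaic acid. Its second probe, for the same transcript, gave 99.7, 48.5 and 820. By that probe RIGI was 6.89-fold higher with okadaic acid than in control and 1.87-fold lower with cantharidin, so both probes had the same order of arrays but not the same call for cantharidin.

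Of the 2 interferon ligands in the list, the type III interferon IFNL1 was far brighter under okadaic acid, while the type I interferon IFNB1 was dim on all arrays. IFNL1 gave 158 in control, 213 with cantharidin and 3451 with okadaic acid. Its log2 difference from control was 4.19 with okadaic acid (18.3-fold) and 0.57 with cantharidin (1.48-fold, just short of the threshold), and the agents differed by 12.3-fold. IFNB1 gave 49.2, 55.7 and 70.5, which was 1.22 to 2.54 times the dimmest accepted signal of its array, and no comparison passed 1.5-fold. At this brightness, smaller differences in IFNB1 could not be told from spot error. The related IFNL2 and IFNL3 belong to the other pathway genes below. Genes of this family are similar in sequence, and signal shared between their probes was not tested.

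Among the transcription factors, STAT2 and IRF9, which act in 1 complex, and IRF7, the factor that amplifies interferon production, were brightest under okadaic acid. IRF7 gave 4463 in control, 17904 with cantharidin and 98586 with okadaic acid, so it was 4.42-fold higher with cantharidin and 18.5-fold higher with okadaic acid. It was the only one of the 4 that passed the threshold under cantharidin. STAT2 gave 3485, 2760 and 12563, 3.02-fold higher with okadaic acid than in control. IRF9, with 1117, 1152 and 2100, was 1.58-fold higher with okadaic acid. IRF1, an activator that also responds to interferon gamma, gave 727, 820 and 763 and did not pass the threshold in any comparison.

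The IFIT proteins bind viral RNA and block its translation, and all 4 genes were higher under okadaic acid than on either other array. IFIT1 gave 1949 in control, 53.9 with cantharidin and 6666 with okadaic acid. It was 32.8-fold lower with cantharidin than in control, 2.87-fold higher with okadaic acid than in control, and 94.1-fold higher with okadaic acid than with cantharidin. The difference of 6.56 on the log2 scale between the agents was the largest measured in the list. With normexp background correction the log2 difference of IFIT1 was -3.73 for cantharidin against control and 5.18 between the agents, in place of -5.04 and 6.56. IFIT2 behaved differently with cantharidin: it gave 90.0, 159 and 3024, which was 1.95-fold higher with cantharidin and 28.1-fold higher with okadaic acid. Its control signal was only 2.57 times the dimmest accepted signal. Under the alternatives its log2 differences fell from 0.96 and 4.81 to as little as 0.47 and 3.16. Its second probe, with 119 under okadaic acid, was below background on the other arrays and was at least 2.84-fold higher with okadaic acid than in control. IFIT5 gave 91.9, 50.4 and 239, 1.66-fold lower with cantharidin and 2.18-fold higher with okadaic acid. IFIT3 was well above background only under okadaic acid, with 89.2, at least 2.14-fold above control.

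Of the interferon-inducible IFI genes, IFI44 alone was called under okadaic acid. IFI44 encodes a cytoplasmic protein with antiproliferative activity. It gave 67.9 on the control array, was below background under cantharidin (5.78) and gave 659 under okadaic acid. The gene was thus at least 2.82-fold lower with cantharidin, 8.13-fold higher with okadaic acid, and at least 22.9-fold apart between the agents. IFI35, which interacts with NMI, gave 544, 971 and 656 and was 1.96-fold higher with cantharidin. IFI6, a mitochondrial and endoplasmic reticulum protein that restrains apoptosis, gave 488, 318 and 597, within 1.5-fold in every comparison. The paralog IFI44L gave 60.3 and 41.9 on the control and cantharidin arrays and was not well above background under okadaic acid, so it did not show the pattern of IFI44 at this brightness.

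The oligoadenylate synthetases make the second messenger that activates RNase L, an enzyme that degrades RNA, and they did not move together. OASL, a family member without synthetase activity that enhances RIG-I signalling, gave 103 in control, 123 with cantharidin and 4137 with okadaic acid. The largest measured differences from control were OASL with okadaic acid (33.6-fold higher), IFIT1 with cantharidin (32.8-fold lower) and IFIT2 with okadaic acid (28.1-fold higher). Their log2 sizes of 5.07, 5.04 and 4.81 had scanner errors of 0.23, 0.27 and 0.23, so their order is not settled. The OASL signal under cantharidin was within 1.5-fold of control. OAS1 gave 425, 58.9 and 803, 6.56-fold lower with cantharidin and 1.58-fold higher with okadaic acid. OAS3 gave 274, 118 and 309, 2.11-fold lower with cantharidin and within 1.5-fold with okadaic acid. Its dimmer probe passed on the control array only and was at least 1.75-fold lower with cantharidin.

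OAS2 was read by 3 probes for different transcripts, which disagreed. The brightest gave 1370, 825 and 955, lower with both agents by 1.51-fold and 1.71-fold. Another gave 216, 98.4 and 205, 2.00-fold lower with cantharidin and within 1.5-fold with okadaic acid. The remaining one gave 118, 103 and 347 and was 2.47-fold higher with okadaic acid. The direction for OAS2 with okadaic acid thus depends on the probe read. Whether the transcript or the probe itself accounts for this was not tested.

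ISG20, an exonuclease of single-stranded RNA, and MX1, a GTPase that blocks viral ribonucleoproteins, were higher with both agents. ISG20 gave 8359 in control, 98058 with cantharidin and 97574 with okadaic acid, differences of 12.9-fold and 9.78-fold from control. The agents themselves were within 1.5-fold of each other for ISG20. Brighter signals were read on the same arrays, such as VIM with 304354 under cantharidin and 236756 under okadaic acid. Whether the ISG20 spots were near the upper limit of the scanner was not tested. MX1 gave 110, 605 and 446, 6.04-fold higher with cantharidin and 3.38-fold higher with okadaic acid, and was 1.78-fold lower with okadaic acid than with cantharidin. MX2, a related GTPase that restricts retroviruses, gave 189, 186 and 347, at the threshold with okadaic acid (1.54-fold higher).

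The 3 measured genes of the ISG15 system were higher with okadaic acid than in control, and with cantharidin ISG15 and HERC5 were lower and USP18 was at the threshold. ISG15 itself gave 20416 in control, 8008 with cantharidin and 83712 with okadaic acid. It was 2.32-fold lower with cantharidin, 3.44-fold higher with okadaic acid and 7.96-fold apart between the agents. USP18, the protease that removes ISG15 from proteins and also restrains interferon receptor signalling, gave 415, 244 and 1258, 1.54-fold lower and 2.54-fold higher than control, and its call for cantharidin was kept in 7 of 10 alternatives. HERC5 is the main ligase that attaches ISG15 and was printed in replicate spots, with 9 usable spots each in control and with cantharidin and 10 with okadaic acid. The spots spanned 158 to 178 in control, 11.7 to 33.8 with cantharidin and 618 to 757 with okadaic acid, before scaling, with no overlap between arrays. Spots on an array repeat the same RNA, so these ranges cover spot error and not variation between cultures. HERC5 was not well above background under cantharidin and so at least 7.02-fold lower than control, and it was 3.49-fold higher with okadaic acid. The HERC6 probes were below background on all arrays.

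The membrane proteins IFITM1, IFITM2 and IFITM3, which block the fusion of viruses with cell membranes, were lower with both agents. IFITM3 gave 25692 in control, 3597 with cantharidin and 9341 with okadaic acid, 6.49-fold and 3.28-fold lower than control. IFITM2 gave 19293, 2834 and 6129, 6.18-fold and 3.76-fold lower. IFITM1 gave 1166, 372 and 495, 2.84-fold and 2.81-fold lower, and its second probe was 3.51-fold and 4.52-fold lower. The family is close in sequence and signal shared between their probes was not tested, so these cannot be counted as independent measurements. BST2 (tetherin), which holds budding virus particles at the cell surface, was dimmer, with 97.0, 44.7 and 74.9, and 1.97-fold and 1.55-fold lower. For BST2 the call was lost in 1 of 10 alternatives with cantharidin and in 3 of 10 with okadaic acid. RSAD2 (viperin) was below background on all arrays.

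**Figure D3:**
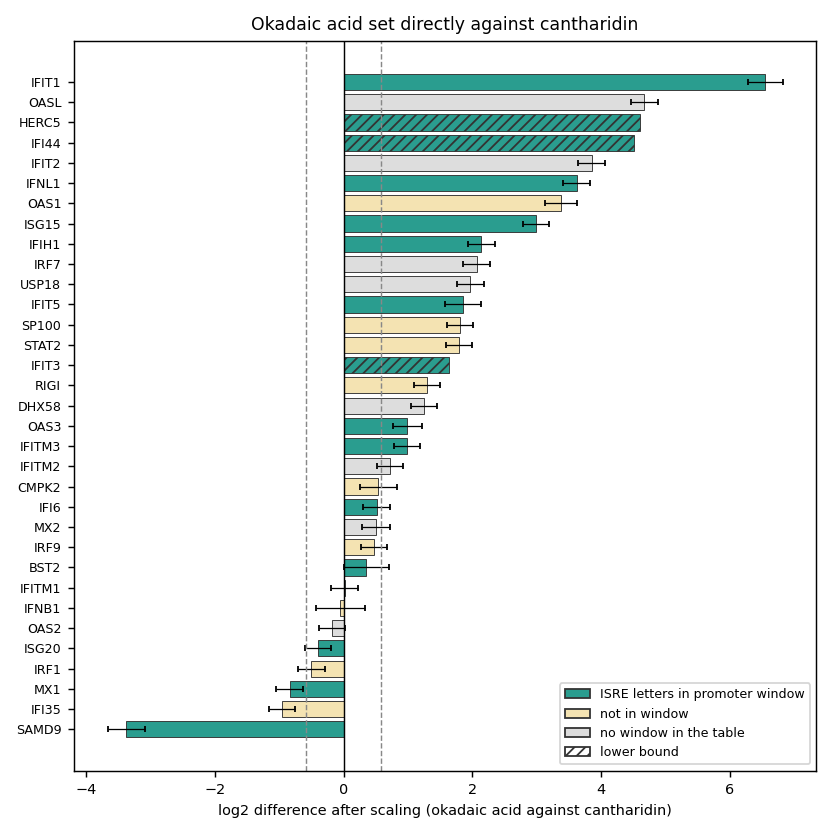
Log2 difference of okadaic acid against cantharidin after scaling, without use of the control array, for each gene with a measured difference (error bars, scanner error) or a lower bound (hatched). Colours show whether the ISRE letters were found in the promoter window, and dashed lines mark 1.5-fold. IFIT1 lies at 6.56 and SAMD9 at -3.37, the ends of the order. IFI44L and DDX60 are not drawn because their bound gave no fold.

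SAMD9, a cytoplasmic antiviral protein that inhibits translation, was brightest with cantharidin. It gave 780 under cantharidin and 98.9 under okadaic acid, and on the control array its signal of 40.3 was not well above background. The gene was at least 21.3-fold higher with cantharidin than in control, at least 2.05-fold higher with okadaic acid, and 10.4-fold lower with okadaic acid than with cantharidin. Its neighbour and paralog SAMD9L was below background everywhere. CMPK2, a mitochondrial nucleotide kinase, gave 75.8, 65.9 and 126, within 1.5-fold in each comparison. XAF1, a pro-apoptotic antagonist of XIAP, gave 63.3 on the control array and was at least 2.21-fold lower with cantharidin. DDX60, a helicase, was well above background on the cantharidin array only, at 26.7, and had no fold.

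SP100, a component of PML nuclear bodies, gave opposite results with its probes. The brightest gave 27307 in control, 2939 with cantharidin and 13585 with okadaic acid, 8.44-fold lower with cantharidin and 2.40-fold lower with okadaic acid. A dimmer probe for the same transcript gave 467, 878 and 971, 2.07-fold and 1.74-fold higher. The probe for another transcript gave 135, 553 and 648, 4.51-fold and 4.02-fold higher. The count of SP100 among the lower genes rests on the brightest probe alone.

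**Figure D4:**
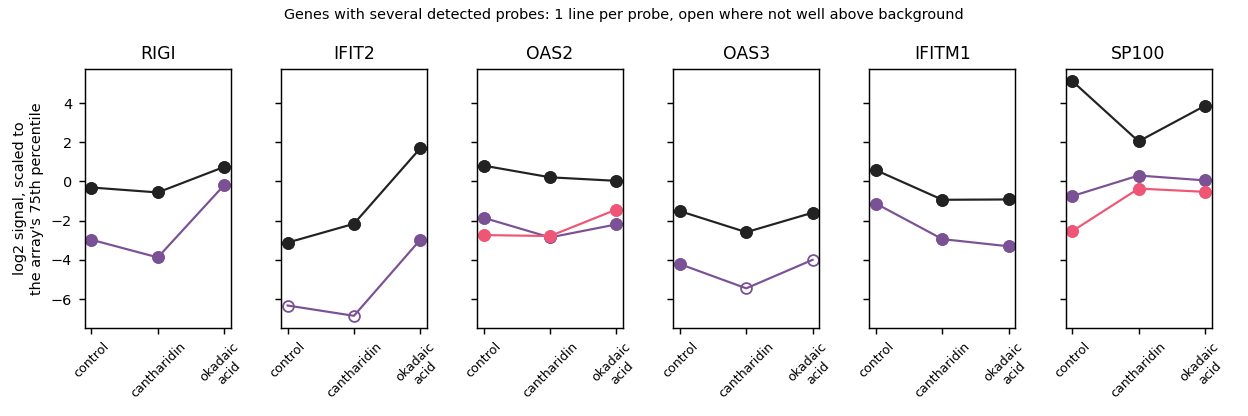
Log2 signal, scaled to the array's 75th percentile, of the genes in the list with more than 1 detected probe, with 1 line per probe and open circles for signals not well above background. The probes of IFIT2 and IFITM1 keep the same order between control and okadaic acid, while those of OAS2 and SP100 run in opposite directions.

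Other genes of the pathway were taken from a list of 78, of which 77 had a probe and 67 could be compared with control for each agent. Cantharidin gave 24 higher (35.8%) and 18 lower (26.9%), against 26.3% and 34.0% of all genes. Okadaic acid gave 16 higher (23.9%) and 6 lower (8.96%), against 28.0% and 27.0%. For okadaic acid against cantharidin, 22 of 67 were higher (32.8%) and 15 lower (22.4%), shares near the 29.4% and 20.5% of all genes. Among them, 26 further interferon-stimulated genes could be compared with control. With okadaic acid 5 of these were higher (19.2%) and 1 lower (3.85%), where the main list gave 60.0% and 17.1% and all genes 28.0% and 27.0%. With cantharidin 10 were higher (38.5%) and 8 lower (30.8%), where all genes gave 26.3% and 34.0%. Of the receptors of type I interferon, IFNAR1 gave 252 in control, 196 with cantharidin and 506 with okadaic acid and was 1.68-fold higher with okadaic acid. IFNAR2 gave 3678, 2177 and 2996 and was 1.54-fold lower with cantharidin, a call kept in 8 of 10 alternatives, and 1.47-fold lower with okadaic acid. A second IFNAR2 probe for the same transcript gave 3466, 1818 and 2280, 1.73-fold lower with cantharidin and 1.81-fold lower with okadaic acid. JAK1, with 1564, 2067 and 1754, TYK2, with 102, 87.0 and 164, and IRF3, the factor activated by the sensors, with 2141, 1778 and 3428, stayed within 1.5-fold of control with both agents.

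The feedback inhibitors of JAK signalling were among the genes with the largest differences. SOCS1 gave 862 in control, 2310 with cantharidin and 9628 with okadaic acid, 2.95-fold and 9.36-fold higher. SOCS3 gave 4090, 2494 and 19932, 4.08-fold higher with okadaic acid and within 1.5-fold with cantharidin. IFNL2 gave 1053, 771 and 5036, 4.01-fold higher with okadaic acid. IFNL3, singled out after its values were seen because it pairs with IFNL1, was well above background only under okadaic acid, at 399 and at least 9.55-fold above control. The 3 type III interferon genes thus had their highest signal on the same array.

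A different set was brightest with cantharidin. BATF2, a transcription factor induced by interferon, gave 49.8 in control, 1005 with cantharidin and 602 with okadaic acid, 22.2-fold and 10.1-fold higher. Its control signal was only 1.42 times the dimmest accepted signal. Under the alternatives its log2 differences fell from 4.47 and 3.34 to as little as 3.12 and 2.03. IRF5, a factor that drives cytokine genes, gave 350, 4011 and 527, 12.6-fold higher with cantharidin and within 1.5-fold of control with okadaic acid. LAMP3 gave 769, 4283 and 810, 6.13-fold higher with cantharidin only. IFNA2 gave 51.5, 277 and 69.3, 5.92-fold higher with cantharidin. Its signal was only 1.47 times the dimmest accepted signal in control and 1.19 times with okadaic acid. The log2 difference of IFNA2 for cantharidin, 2.565, fell to as little as 1.39 under the alternatives. The ubiquitin ligases TRIM21, with 423, 1583 and 792, and TRIM5, with 237, 787 and 375, were 4.12-fold and 3.66-fold higher with cantharidin, and TRIM21 was also 1.57-fold higher with okadaic acid. The interferon gamma receptor chain IFNGR2, with 7510, 1933 and 6715, was 3.53-fold lower with cantharidin. In antigen presentation, which interferons also raise, 5 of 13 genes were higher (38.5%) and 3 lower (23.1%) with cantharidin, where all genes gave 26.3% and 34.0%. With okadaic acid 1 was higher and 1 lower (7.69% each), where all genes gave 28.0% and 27.0%.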

How the data were processed

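Scanner output of 3 Agilent 1-colour arrays was used, grouped by their titles. The authors deposited processed spot intensity made with Feature Extraction 11.0.1.1 (annotation build hg19), background-subtracted and detrended per the file headers and not scaled between arrays. A further table that the authors deposited holds normalized log2 values, and its method is not given in the sources used here. Its column medians were 7.75, 7.74 and 7.75 for control, cantharidin and okadaic acid, each column correlated with its own array at r of 0.998 to 0.999 across probes and with other arrays at no more than 0.938, and any centring remains unknown. It served as an alternative.

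For each of 34041 probes, the log2 intensities of spots not flagged as outliers were averaged, and each array's 75th percentile was subtracted. Accessions without their version were matched to RefSeq GRCh38.p14, which named 25705 probes and 19699 genes. Probe coordinates were not used. A dim signal was set to the lowest signal well above background on its array where that was higher. Genes were called at 1.5-fold without a pseudocount. The counting step was tested on simulated data. The number of arrays limits the precision.

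Every gene of the list well above background on at least 1 array is named. Of the other pathway genes, those named are the 10 with the largest difference among genes well above background on all 3 arrays, and IFNAR1, IFNAR2, JAK1, TYK2 and IRF3, whatever their values. A further gene of that rule is not reported here. Members, lists and rules were chosen with earlier results of these data known. Alternatives covered 4 other scalings, normexp background correction (offset 50, on the median spot intensity), filters on dim probes, measured dim signals, the deposited table, a 2-fold threshold, the median over a gene's probes, and probes in place of genes. Python 3.11.15, numpy 2.4.6, pandas 2.3.3, matplotlib 3.10.9, R 4.3.3 and limma 3.58.1 were used.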

Additional observations from a re-analysis of the deposited data

How the results depend on the processing

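Among the genes of the list called past 1.5-fold, 14 of 21 for cantharidin, 20 of 27 for okadaic acid and 19 of 23 for okadaic acid against cantharidin kept their call under every alternative run for single genes, namely scaling, background, filter, dim signals, deposited table and probe choice. Calls lost under at least 1 of them were, for cantharidin, IFIT2, IFIT5, OAS2, BST2, USP18, XAF1 and SP100, and for okadaic acid, MX2, OAS1, OAS2, IRF9, BST2, SP100 and SAMD9. For okadaic acid against cantharidin they were IFI35, MX1, IFITM2 and SP100. The median log2 difference of the list for okadaic acid, 1.04, became 1.29 without scaling, 0.61 with normexp, 0.66 with genes well above background on all 3 arrays and 0.66 with no filter. Only 1 gene (SAMD9), in place of 3, was lower with okadaic acid than with cantharidin without scaling, and again 1 at a 2-fold threshold. By the median over its probes, SP100 turned to 1.05 for cantharidin, 0.80 for okadaic acid and -0.17 between the agents, since its dimmer probes oppose the brightest. The same setting moved IFIT2 and RIGI by over 1.5-fold for okadaic acid and between the agents. For the other changes the cause was not tested. Normexp moved 7 of the 21 called differences for cantharidin by over 1.5-fold (HERC5, IFI44, IFIT1, MX1, OAS1, SAMD9 and XAF1), 5 of 27 for okadaic acid (IFI44, IFIT2, IFNL1, OASL and SAMD9) and 8 of 23 between the agents. Dim signals limit IFIT3, IFI44, IFI44L, HERC5, SAMD9 and XAF1 to a bound in at least 1 comparison. These bounds are not minima over the alternatives. Among the called bounds, the log2 differences smallest in size for cantharidin were -0.73 (IFI44), -1.16 (HERC5), 2.87 (SAMD9) and -0.49 (XAF1). For okadaic acid they were 0.65 (IFIT3) and 0.44 (SAMD9). Between the agents they were 2.64 (IFI44), 2.54 (HERC5) and 0.65 (IFIT3). No paired analysis was possible because each group has 1 array, and no replicate could be left out.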
